A study of Mus musculus with 9 samples.

Results

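Antigen processing and peptide loading genes encode the proteins that cut peptides, move them into the endoplasmic reticulum (ER) and place them on major histocompatibility complex (MHC) class I molecules. 10 such genes were chosen by name, and all 10 were found among the 14351 genes of the expression table. Of these, 5 lie in the MHC on chromosome 17 (Tap1, Tap2, Tapbp, Psmb8 and Psmb9), the region that also holds Clic1, and 5 lie elsewhere (Psmb10, Erap1, Calr, Canx and Pdia3).

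RNA sequencing was performed on the hypothalamus of chow-fed male mice that lack Clic1, a chloride intracellular channel gene, in every tissue (Clic1 KO, libraries K2, K4, K6, K8 and K10), and of WT littermates (libraries W1, W3, W9 and W11), to find hypothalamic genes that differ with the loss of Clic1. The KO line is kept on a CD-1 background according to the methods, whereas the labels name the strain C57b/6J, and the age of the sequenced mice was not given in the sources used here. The labels give the tissue as hypothalamus but mention perigonadal adipose tissue among the protocols; 14 of 14 hypothalamic neuropeptide and regional genes were in the table, and 0 of 8 adipocyte genes were. Library K10 was titled and tagged as WT but described, and named in the table, as a K library. Clic1 was 1.43 CPM (read counts scaled to library depth and normalized by the authors) in K10, within the range of the other KO libraries (0.733 to 1.93 CPM) and below all WT libraries (3.58 to 5.52 CPM), with a log2 difference of -1.80 between KO and WT (limma adjusted p = 0.0153, lower in 5 of 5 KO libraries). K10 was therefore kept with the KO libraries, its title notwithstanding, and several results that rest on it are given with and without it. Because the Clic1 level helped to place K10, the Clic1 difference was also fitted without K10, at -1.84 (limma adjusted p = 0.00494). The size of the smallest steps between values gave an approximate depth of 5.46 to 11.1 M reads for 8 libraries and 20.2 M for K10. Beyond these labels nothing says how the replicates were raised, so p-values measure the spread between these libraries, and in whole tissue fewer cells of a type and less RNA per cell cannot be told apart.

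Class I molecules show peptides from inside the cell to CD8+ T cells. The proteasome cuts cytosolic proteins into peptides, the TAP transporter carries them into the ER, aminopeptidases trim them, and tapasin, calreticulin and ERp57 hold the empty class I molecule until a peptide fits. Interferon gamma raises the genes of the immunoproteasome, of TAP and of tapasin in most cells, and resting neurons are known for low levels of class I genes, while microglia and endothelium carry more. Calreticulin, calnexin and ERp57 serve the folding of glycoproteins in general and follow the unfolded protein response.

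3 promoters are shown. Tap1 shares its start region with Psmb9, and both genes were highest in library W9. Calr and Canx share a motif and were both highest in K10, as described further on. Tap2, Tapbp and Psmb8 were also highest in W9, and Psmb10 and Pdia3, whose promoters lack that motif, were also highest in K10. A link between these sequences and the values was not tested. Of the 10 members, 9 had a RefSeq promoter of 250 bases before to 50 bases after the start (GRCm38.p6). Tap1 and Psmb9 are read in opposite directions from neighbouring starts, and their windows share 275 bases. The Tap1 window is chr17:34187306-34187605 on the plus strand, the Calr window is chr8:84846882-84847181 on the minus strand, and the Canx window is chr11:50325624-50325923 on the minus strand. Each is printed 5′ to 3′ in the direction of the gene, and capitals mark a match to the ER stress element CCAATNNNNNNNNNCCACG, which itself contains a CCAAT box.
Tap1 promoter: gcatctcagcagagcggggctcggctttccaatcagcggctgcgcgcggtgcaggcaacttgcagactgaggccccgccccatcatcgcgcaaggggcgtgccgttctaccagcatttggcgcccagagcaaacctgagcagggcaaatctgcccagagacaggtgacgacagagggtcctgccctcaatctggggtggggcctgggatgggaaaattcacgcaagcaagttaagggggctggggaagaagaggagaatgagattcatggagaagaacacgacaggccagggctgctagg
Calr promoter: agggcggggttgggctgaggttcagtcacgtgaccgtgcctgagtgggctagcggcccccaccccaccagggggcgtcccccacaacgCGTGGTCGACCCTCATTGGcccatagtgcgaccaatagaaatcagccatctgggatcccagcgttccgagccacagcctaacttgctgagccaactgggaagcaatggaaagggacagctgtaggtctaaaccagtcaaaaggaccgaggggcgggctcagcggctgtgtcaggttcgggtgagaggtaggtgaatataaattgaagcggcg
Canx promoter: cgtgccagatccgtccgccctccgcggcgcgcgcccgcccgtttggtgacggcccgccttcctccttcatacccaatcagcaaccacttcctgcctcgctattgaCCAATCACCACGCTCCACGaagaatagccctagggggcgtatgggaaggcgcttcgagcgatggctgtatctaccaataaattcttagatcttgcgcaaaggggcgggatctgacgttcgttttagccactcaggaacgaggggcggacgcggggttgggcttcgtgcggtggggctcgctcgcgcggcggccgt
With both strands searched, the ER stress element was present in 0.119% of 32851 mouse promoters of this length, and in 2 of the 9 member promoters, Calr (first base at -162 from the start, on the opposite strand) and Canx (at -145). An interferon-stimulated element written GAAANNGAAA, found in 3.44% of promoters, matched 1 member, Erap1 (at -4). The gamma-activated sequence TTCNNNGAA, found in 8.3% of promoters, also matched 1 member, Psmb8 (at -97). These matches describe letters in a window and carry no measurement of binding.

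Loss of Clic1 was not accompanied by a detectable change in any of the 10 genes. With limma, 0 of 10 passed an adjusted p of 0.05, where 0.286% of all 14351 genes did, and 0 of 10 had an unadjusted p below 0.05, where 6.5% of all genes did. A second fit with limma-voom on estimated reads also called 0 of 10. The KO and WT libraries overlapped for 10 of 10 members, and they were separate for 3.41% of all genes. The log2 differences (KO minus WT, on the log2(CPM + 0.1) scale) ran from -0.04 for Tap2 to 0.25 for Psmb9, with a median of 0.08 against 0.00089 over all genes. 9 of 10 were above 0, as were 50.4% of all genes. The median was 0.14 for the 5 MHC genes and 0.03 for the 5 unlinked genes, and adjusted p ranged from 0.844 to 0.997. This count and these medians rested on K10 and W9. Without K10, 5 of 10 were above 0, with a median of -0.0021 over the members against -0.0020 over all genes, 0.12 for the MHC genes and -0.08 for the unlinked genes. Without W9, 10 of 10 were above 0, with a median of 0.33 for the MHC genes and 0.08 for the unlinked genes.

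**Figure D1:**
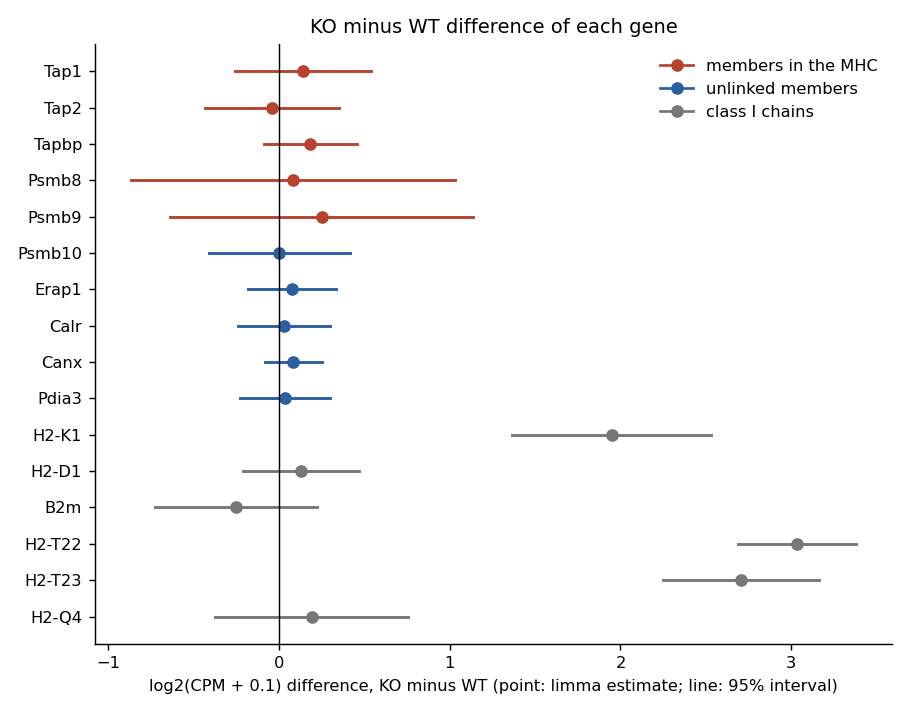
Log2 difference in expression, KO minus WT (horizontal axis, log2(CPM + 0.1), points are limma estimates and lines 95% intervals, 5 KO against 4 WT libraries), for the 10 members and 6 class I chains. All 10 member intervals include 0, from -0.04 for Tap2 to 0.25 for Psmb9, whereas H2-K1, H2-T22 and H2-T23 stand at 1.95 to 3.03.

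The intervals differed widely between members. For Canx the 95% interval of the fold change (KO over WT) was 0.944 to 1.19, and for Erap1 it was 0.883 to 1.26. For Psmb8 it was 0.549 to 2.04 and for Psmb9 0.643 to 2.20. A 1.3-fold difference in either direction is thus outside the interval for Canx and Erap1 and inside it for Psmb8 and Psmb9, 2 genes that rested on few reads. The estimated reads behind a value were 4 to 24.4 per library for Psmb9 and 12 to 76 for Psmb8, against 994 to 5950 for Pdia3.

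The catalytic subunits of the immunoproteasome, which replace the constitutive subunits and change the cut sites, come first in the pathway. Psmb8 (ENSMUSG00000024338, chr17:34197721-34201454, plus strand) measured 2.70, 2.77, 2.20, 2.35 and 3.66 CPM in K2, K4, K6, K8 and K10, and 1.09, 1.76, 7.60 and 2.75 CPM in W1, W3, W9 and W11. W9 stood above all other libraries, W1 and W3 lay below all KO libraries, and W11 lay among them. Means were 2.74 ± 0.570 CPM (SD, n = 5) for KO and 3.30 ± 2.95 CPM (SD, n = 4) for WT, a log2 difference of 0.08 (SE 0.43, limma adjusted p = 0.983). Without W9 the difference was 0.60 (adjusted p = 0.868), so the value of this library decided the size of the estimate. Psmb9 (ENSMUSG00000096727, chr17:34181987-34187764, minus strand) measured 1.42, 1.85, 1.10, 1.72 and 1.19 CPM in the KO libraries and 1.90, 0.725, 2.44 and 0.551 CPM in the WT libraries, in the same order. Its WT libraries covered both the lowest and the highest of the 9 values. The log2 difference was 0.25 (SE 0.41, limma adjusted p = 0.925), with means of 1.45 ± 0.324 CPM (SD, n = 5) and 1.40 ± 0.914 CPM (SD, n = 4). The third subunit, Psmb10 (ENSMUSG00000031897, chr8:105935735-105938444, minus strand), lies outside the MHC and was more abundant. It measured 11.7, 11.5, 12.5, 13.0 and 21.4 CPM in K2 to K10 and 12.6, 13.2, 17.7 and 11.6 CPM in W1 to W11. K10 and W9 were the only libraries above 13.2 CPM, and the log2 difference was 0.00 (SE 0.19, limma adjusted p = 0.997). Without K10 the difference was -0.16 (limma adjusted p = 0.738).

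Each immunoproteasome subunit was also set against the constitutive subunit whose place it takes, within a library, which makes the value independent of library scaling. Psmb8 amounted to 10.4% ± 1.13 (SD, n = 5) of Psmb5 in KO and 13.1% ± 9.43 (SD, n = 4) for WT. In W9 it was 26.7%, and in the other WT libraries 5.03% to 10.5%, so the wide WT spread came from W9 at the top and W1 at the bottom. Psmb9 was 2.15% ± 0.731 of Psmb6 in KO and 1.94% ± 1.031 in WT, and Psmb10 was 22.5% ± 4.46 of Psmb7 in KO and 22.4% ± 2.95 in WT. These subunits were therefore minor components at the RNA level in both genotypes. By two-sided exact permutation tests of the log2 ratios the p-values were 0.817, 0.603 and 0.992, and all 5 ratios tested, including those of the transporter and tapasin below, had a Benjamini-Hochberg adjusted p of 0.992. With 5 against 4 libraries the smallest p this test can give is 0.00794. Without K10 the log2 difference of Psmb10/Psmb7 was -0.11 (exact permutation test, Benjamini-Hochberg adjusted p = 0.714), against -0.0053 with K10.

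**Figure D2:**
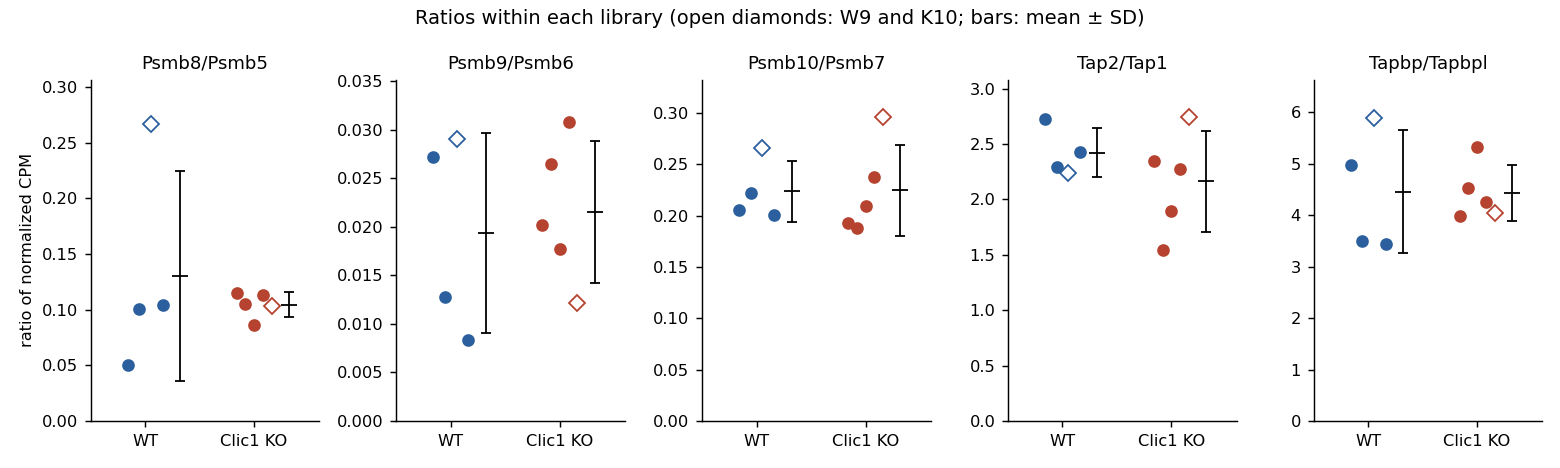
Ratio of normalized CPM of 2 genes in each library (vertical axes start at 0, open diamonds are W9 and K10, bars are mean ± SD of 4 WT and 5 KO libraries). Psmb8 over Psmb5 reached 0.267 in W9 against 0.0503 to 0.105 in the other WT libraries, and the KO and WT libraries overlap in all 5 panels.

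Tap1 and Tap2 form the peptide transporter of the ER membrane. Tap1 (ENSMUSG00000037321, chr17:34187553-34197225, plus strand) measured 5.54, 6.99, 5.31, 5.63 and 6.23 CPM in K2, K4, K6, K8 and K10, and 4.70, 4.56, 7.86 and 4.82 CPM in W1, W3, W9 and W11. All 5 KO libraries lay above 3 of the 4 WT libraries, and W9 lay above all. Means were 5.94 ± 0.676 CPM (SD, n = 5) and 5.49 ± 1.59 CPM (SD, n = 4), with a log2 difference of 0.14 (SE 0.18, limma adjusted p = 0.903). Without W9 the groups no longer overlapped, as for 6.21% of all genes under that omission, and the log2 difference was 0.33 (limma unadjusted p = 0.0565, adjusted p = 0.85), which did not pass the test. Tap2 (ENSMUSG00000024339, chr17:34203527-34216321, plus strand) measured 13.0, 10.8, 10.1, 12.8 and 17.1 CPM in the KO libraries and 12.8, 10.5, 17.6 and 11.7 CPM in the WT libraries. K10 and W9 were the highest of their groups by a wide margin. The log2 difference was -0.04 (SE 0.18, limma adjusted p = 0.977). Without K10 the difference was -0.15 (limma adjusted p = 0.80). Tap2 exceeded Tap1 in every library in CPM, by a ratio of 2.16 ± 0.456 (SD, n = 5) for KO and 2.42 ± 0.219 (SD, n = 4) for WT (exact permutation p = 0.341), and per kilobase of transcript the means were 3.71 CPM for Tap2 and 2.01 CPM for Tap1 in KO.

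Erap1, the ER aminopeptidase that trims peptides to the length class I binds, was measured at a moderate level. Erap1 (ENSMUSG00000021583, chr13:74639568-74693201, plus strand) was 22.03, 28.5, 21.8, 28.4 and 22.8 CPM in K2 to K10 and 21.2, 23.6, 27.1 and 21.4 CPM in W1 to W11. K4, K8 and W9 were high and the other 6 libraries lay close together. The means were 24.7 ± 3.44 CPM (SD, n = 5) and 23.4 ± 2.75 CPM (SD, n = 4), and the log2 difference was 0.08 (SE 0.12, limma adjusted p = 0.921).

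Tapbp encodes tapasin, which bridges TAP and class I. Tapbp (ENSMUSG00000024308, chr17:33915899-33929292, plus strand) measured 44.7, 43.5, 42.0, 44.7 and 35.8 CPM in K2, K4, K6, K8 and K10, and 40.1, 30.4, 46.6 and 32.8 CPM in W1, W3, W9 and W11. K2, K4, K6 and K8 lay close together, K10 was lower, and W9 was the highest of all. Means were 42.1 ± 3.73 CPM (SD, n = 5) for KO and 37.5 ± 7.35 CPM (SD, n = 4) for WT, with a log2 difference of 0.18 (SE 0.12, 95% interval -0.09 to 0.46, limma adjusted p = 0.844), and this was the member with the smallest unadjusted p, 0.163. With K10 and W9 both left out no KO library overlapped with a WT library, as for 10.1% of all genes under that omission, and the difference was 0.35 (SE 0.09, limma unadjusted p = 0.000997, adjusted p = 0.0765). It did not pass the threshold, and this omission was chosen after the data were seen. With 1 library left out at a time the difference ran from 0.0916 without W3 (limma adjusted p = 0.992) to 0.30 without W9 (limma unadjusted p = 0.0243, adjusted p = 0.773). Without K10 the difference was 0.24 (limma unadjusted p = 0.0402, adjusted p = 0.445). None of these adjusted p-values passed the threshold. Tapbp relative to Tapbpl, the tapasin relative that edits peptides outside the loading complex, was 4.43 ± 0.548 (SD, n = 5) for KO and 4.46 ± 1.20 (SD, n = 4) for WT (exact permutation p = 0.897).

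The chaperones of the loading complex were the most abundant members. Calr, calreticulin (ENSMUSG00000003814, chr8:84841850-84846934, minus strand), measured 243, 254, 240, 247 and 377 CPM in K2, K4, K6, K8 and K10 and 244, 265, 290 and 253 CPM in W1, W3, W9 and W11. Canx, calnexin, the membrane-bound lectin that folds the class I heavy chain (ENSMUSG00000020368, chr11:50293961-50325673, minus strand), measured 547, 568, 549, 560 and 690 CPM in KO and 515, 582, 538 and 560 CPM in WT. Pdia3, the disulfide isomerase ERp57 that is bound to tapasin (ENSMUSG00000027248, chr2:121413775-121438687, plus strand), measured 190, 210, 182, 199 and 294 CPM in KO and 198, 215, 219 and 197 CPM in WT. For all 3 genes K10 was well above the other 8 libraries, whose values were close together. The log2 differences were 0.03 for Calr (SE 0.12, limma adjusted p = 0.975), 0.08 for Canx (SE 0.08, adjusted p = 0.874) and 0.03 for Pdia3 (SE 0.12, adjusted p = 0.971). Without K10 they were -0.09, 0.02 and -0.08, none past the threshold, and the KO mean of Calr was 246 ± 6.14 CPM (SD, n = 4) in place of 272 ± 58.8 CPM (SD, n = 5).

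On the scale of CPM per kilobase of the longest protein-coding transcript, which allows levels of different genes to be compared, the members ranged from 1.08 to 136 in KO. Canx (136 ± 14.1, SD, n = 5) and Calr (125 ± 26.9) led and overlapped each other, followed by Pdia3 (77.7 ± 16.4). Tapbp (14.5 ± 1.29) and Psmb10 (10.7 ± 3.19) came next. Erap1 (4.38 ± 0.610) and Tap2 (3.71 ± 0.790) did not differ beyond their spread, and neither did Tap1 (2.01 ± 0.229) and Psmb8 (1.68 ± 0.350). Psmb9 was lowest (1.08 ± 0.239). Canx, Calr and Pdia3 thus stood above all other members. The order in WT differed only in that Psmb8 (2.03 ± 1.81, SD, n = 4) was above Tap1 (1.86 ± 0.537), well within the spread.

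**Figure D3:**
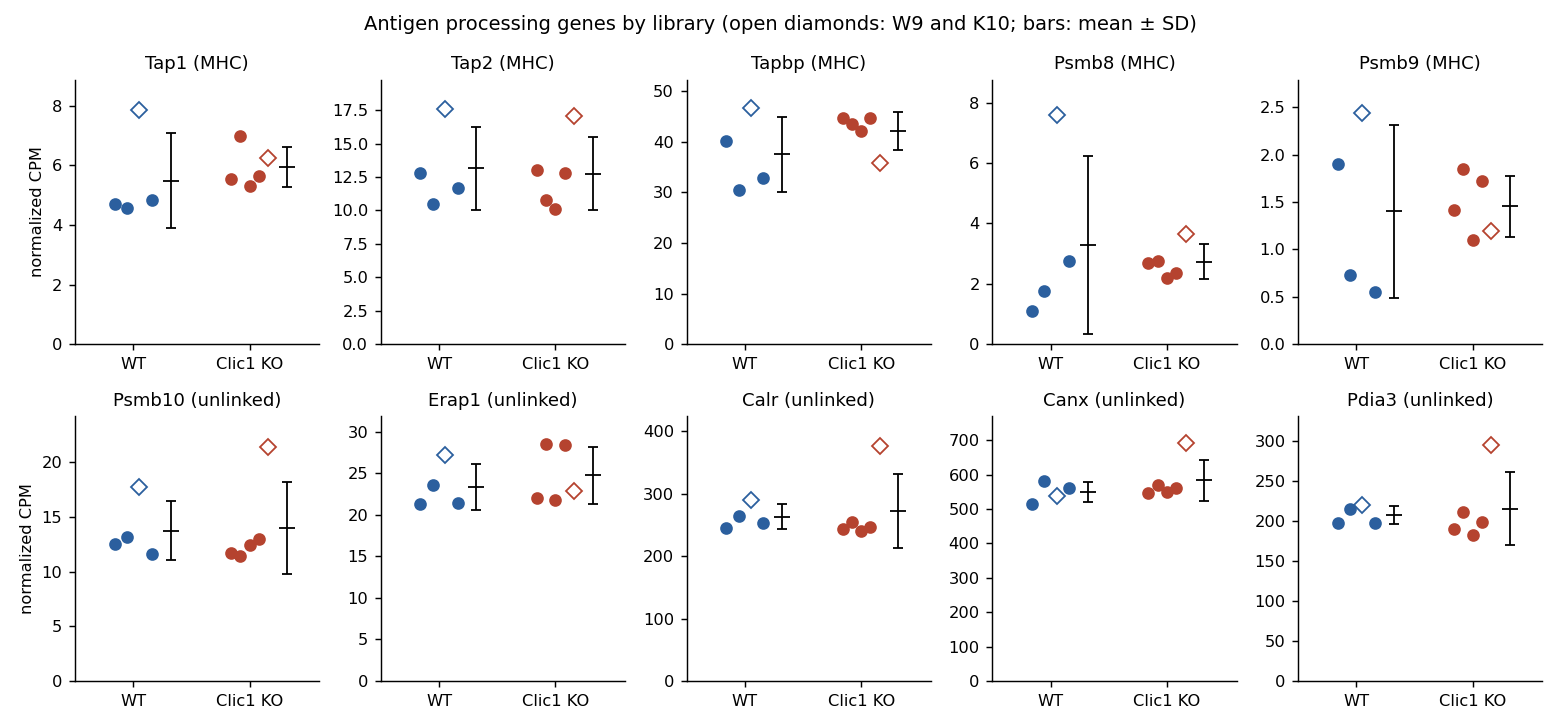
Normalized CPM of each member in every library (vertical axes start at 0, filled circles are libraries, open diamonds are W9 and K10, bars are mean ± SD of 4 WT and 5 KO libraries). W9 is the highest of the 9 libraries in all 5 MHC panels, from 2.44 CPM for Psmb9 to 46.6 CPM for Tapbp, and K10 is the highest in 4 of the 5 unlinked panels.

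The MHC and unlinked members had different libraries at their upper extreme. W9 was the highest of the 9 libraries for 5 of 5 MHC members and 0 of 5 unlinked members, and it was the highest for 10.9% of all genes. K10 was the highest of the 9 for 0 of 5 MHC members and 4 of 5 unlinked members, and for 30.1% of all genes. Relative to the mean of the other 3 WT libraries, W9 was 4.07-fold for Psmb8, 2.30-fold for Psmb9, 1.67-fold for Tap1, 1.51-fold for Tap2 and 1.35-fold for Tapbp. The same ratio was 1.42 for Psmb10, 1.23 for Erap1, 1.14 for Calr, 1.08 for Pdia3 and 0.974 for Canx, with a median of 0.999 over all genes and 8.97% of genes above 1.3. Relative to the mean of the other 4 KO libraries, K10 was 1.76-fold for Psmb10, 1.53-fold for Calr, 1.50-fold for Pdia3 and 1.24-fold for Canx, while Erap1 was at 0.905. Among the MHC members K10 was at 1.46 for both Tap2 and Psmb8, 1.06 for Tap1, 0.818 for Tapbp and 0.785 for Psmb9, and 19.3% of all genes were above 1.3. Each pattern is that of a single mouse library, so no test was made of it.

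Other genes were at their highest in W9 as well, and W9 was the highest of the 9 libraries for 10.9% of all genes. Of 20 interferon-induced genes listed, 18 were in the table (Isg15 and Oas1a were not), and W9 was the highest of the 9 libraries for 13 of them, with a median of 2.07-fold over the other WT libraries. Iigp1, an interferon-inducible GTPase, was 13.7 CPM in W9 and 1.18 to 1.52 CPM in the other WT libraries, and Igtp was 10.8 CPM against 2.07 to 2.08 CPM. Gbp3, a guanylate-binding protein of the same response, was 7.60 CPM against 1.86 to 2.98 CPM. The remaining genes of this list were highest in another library. Among them was Ifit1, for which every WT library, W9 included, lay below every KO library. Of 10 regulators of class I transcription, W9 was the highest of the 9 libraries for 4, with a median of 1.04-fold over the other WT libraries. Among them Nlrc5, the class I transactivator, was 5.40 CPM in W9 and 1.36 to 2.77 CPM in the other 8 libraries. Rfxank went the other way, at 15.0 CPM in W9 and 19.0 to 20.2 CPM in the other WT libraries. The summed level of 10 microglial genes was 306 CPM in W9, 232 to 251 CPM in the other WT libraries and 215 to 254 CPM in KO, and W9 was the highest of the 9 for 5 of the 10, though not for Cx3cr1, P2ry12 or Tmem119. Summed endothelial genes were 234 CPM in W9 and 211 to 221 CPM in the other WT libraries, and 225 to 259 CPM in KO. Of 8 blood genes, Ptprc and Alas2 were in the table, with a sum of 16.1 CPM in W9, 11.9 to 15.1 CPM in the other WT libraries and 15.5 to 19.3 CPM in KO. The part of these genes or cells in the W9 values of Psmb8, Psmb9, Tap1, Tap2 and Tapbp was not tested.

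K10 was high for another set of genes. Over all genes it was the highest of the 9 libraries for 30.1%, and 19.3% were above 1.3-fold over the other KO libraries. Of 16 unfolded protein response genes, all in the table, K10 was the highest of the 9 libraries for 9, with a median of 1.34-fold over the other KO libraries. Creld2 was 25.7 CPM in K10 where K2, K4, K6 and K8 lay at 7.73 to 10.8 CPM, Hyou1, an ER chaperone, was 302 CPM against 204 to 209 CPM, and Pdia4 was 71.3 CPM against 38.3 to 42.7 CPM. Of 17 constitutive and shared proteasome genes K10 was the highest of the 9 for 13, with a median of 1.50-fold, and Psmb5, Psmb6 and Psmb7 stood at 1.47, 1.52 and 1.22-fold. K10 was also the highest of the 9 for 3 of 5 astrocyte genes and 4 of 6 oligodendrocyte genes, with medians of 1.42-fold and 1.36-fold over the other KO libraries. The summed level was 2032.5 CPM in K10 against 1531 to 1688 CPM in the remaining KO libraries for the astrocyte genes, and 3481 CPM against 3638 to 3943 CPM for the oligodendrocyte genes, so that this last sum was lowest in K10 although most of its genes were highest there. Summed neuronal genes were 2169.5 CPM in K10, inside the span of 2164 to 2258.5 CPM of the rest of the KO group. K10 was also the deepest library, at 20.2 M estimated reads where the other KO libraries had 5.46 to 7.76 M. The part of depth, tissue content or the conflict in the labels of K10 in the values of Psmb10, Calr, Canx and Pdia3 was not tested.

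**Figure D4:**
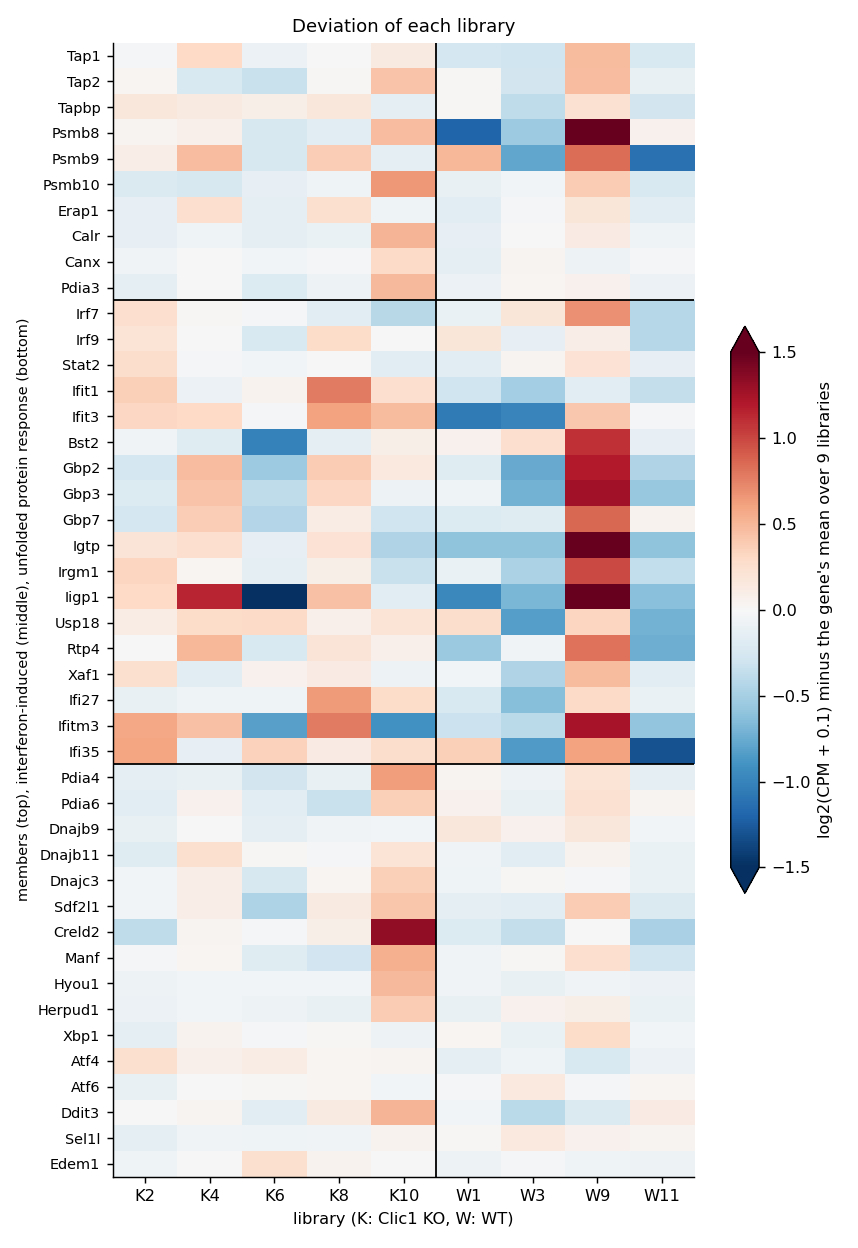
Colour shows log2(CPM + 0.1) of a library minus the mean of that gene over the 9 libraries, limited to -1.5 and 1.5, for the 10 members (top), 18 interferon-induced genes (middle) and 16 unfolded protein response genes (bottom), with KO libraries left and WT libraries right of the line. The W9 column is red for the MHC members and for most interferon-induced genes, of which 13 are highest there, and the K10 column is red for Psmb10, Calr, Canx and Pdia3 and for 9 unfolded protein response genes that are highest there.

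Between genotypes, the only other genes of the pathway lists past the threshold were class I heavy chains. 0 of 17 constitutive and shared proteasome genes, 0 of 4 proteasome activators, 0 of 6 cytosolic peptidases, 0 of 15 other ER loading and folding factors, 0 of 18 interferon-induced genes, 0 of 16 unfolded protein response genes and 0 of 10 class I regulators passed the limma test, and the limma-voom fit called 0 in each of these lists too. Unadjusted p-values below 0.05 were found for 0, 0, 0, 0, 2, 2 and 1 genes of these lists, against 6.5% of all genes. Full separation by genotype was seen for 1 interferon-induced gene (Ifit1), 1 unfolded protein response gene (Atf4) and 1 class I regulator (Rfxank). Over all genes its share was 3.41%, and an excess in the lists over these shares was not tested. The list medians of the log2 difference were 0.06, -0.01, 0.09, 0.01, 0.06, 0.05 and -0.0038 in the same order. Rfxank, a subunit of the RFX complex that binds class I and class II promoters, ranged over 10.8 to 14.7 CPM (KO) and 15.0 to 20.2 CPM (WT), without overlap, at a log2 difference of -0.48 (SE 0.13, limma unadjusted p = 0.00257, adjusted p = 0.336). It passed in 2 alternatives, with sample weights (adjusted p = 0.0456) and with K10 and W9 left out (adjusted p = 0.0409). Ifit1, an interferon-induced RNA-binding protein, ranged over 4.48 to 8.26 CPM (KO) and 3.32 to 4.23 CPM (WT), a log2 difference of 0.61 (SE 0.19, limma adjusted p = 0.506), and Atf4, a transcription factor of the stress response, over 53.2 to 61.4 CPM (KO) and 44.4 to 49.8 CPM (WT), a difference of 0.23 (SE 0.07, limma adjusted p = 0.506). The genes with the smallest unadjusted p in the other lists were Psmg1 (0.0739), Psme3 (0.150), Nrd1 (0.207) and Uggt2 (0.111).

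Of 6 class I chains, 3 passed the test and were higher in KO. H2-T22 had a log2 difference of 3.03 (SE 0.16, limma adjusted p = 1.92e-06), H2-T23 of 2.70 (SE 0.21, adjusted p = 8.71e-05) and H2-K1 of 1.95 (SE 0.27, adjusted p = 0.00886), each without overlap between the libraries. With K10 grouped as WT, as its title has it, 0 of 6 passed with limma, and Clic1 itself was at -1.51 (limma adjusted p = 0.501). With K10 left out, the same 3 chains passed with limma. H2-T22 was then at 3.01 (adjusted p = 4.05e-07), H2-T23 at 2.69 (adjusted p = 2.31e-05) and H2-K1 at 1.88 (adjusted p = 0.00118). In the main fit H2-D1 (0.13), H2-Q4 (0.19) and B2m, the light chain shared by all class I molecules (-0.25), did not pass. Higher RNA of 3 heavy chains in KO was thus seen without a called difference in any of the 10 members. H2-K1, H2-T22 and H2-T23 start at -1.05, 0.987 and 0.980 Mb from the start of Clic1. For genes linked to Clic1, its loss and the inheritance of the surrounding stretch cannot be told apart in this design. Whether these 3 chains depend on the members was not tested. The H2 genes resemble each other in sequence, and the division of reads among them by the counting is uncertain.

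The 5 MHC members lie between -1.13 and -0.846 Mb from the start of Clic1 (chr17, GRCm38), among genes that did pass. Within 1 Mb of an MHC member, 79 other genes were tested and 8 passed (10.1%), namely Zfp955b, Rgl2, Rps18, H2-K1 and Hspa1a, which were higher in KO, and Stk19, Hspa1b and Clic1, which were lower. Within 1 Mb of an unlinked member, 172 other genes were tested and 0 passed with limma, where 0.286% of all genes did. An unadjusted limma p below 0.05 was found for 12 of these 172, and for 26 of the 79 around the MHC members. The share over all genes was 6.5%. Rgl2, a gene next to Tapbp, had a log2 difference of 0.93 (SE 0.12, limma adjusted p = 0.00682), and Rps18, a ribosomal protein gene a little further on, of 2.06 (SE 0.19, limma adjusted p = 0.000353). H2-K1 lay between Rps18 and Psmb9. The MHC members had differences of -0.04 to 0.25 in the same stretch. This stretch is linked to Clic1, so for its genes loss of Clic1 and inheritance of the surrounding sequence cannot be told apart. The median absolute log2 difference was 0.21 around the MHC members, 0.10 around the unlinked members and 0.09 over all genes.

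**Figure D5:**
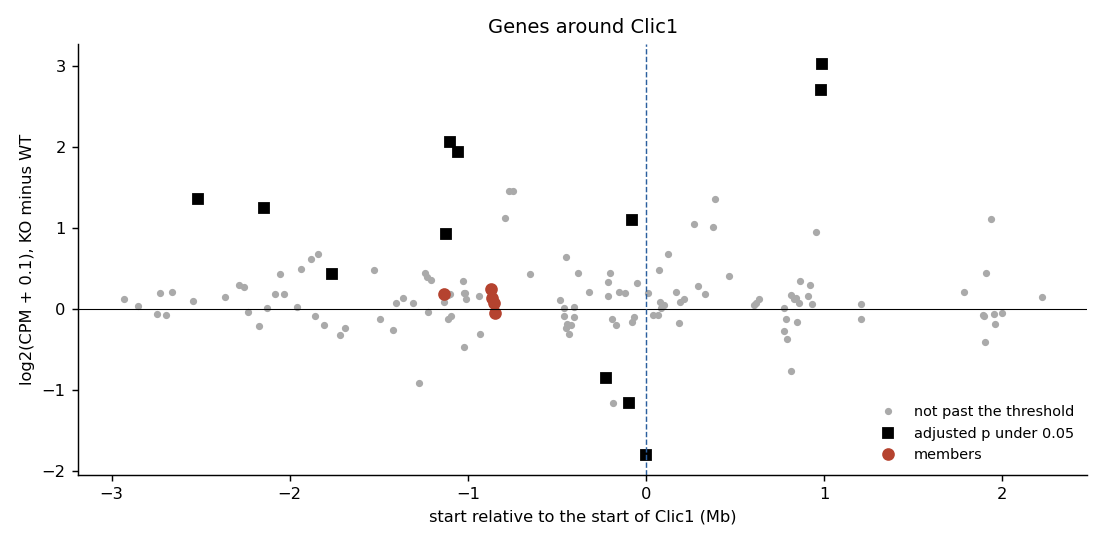
Log2 difference in expression, KO minus WT (vertical axis, log2(CPM + 0.1)), of every tested gene within 3 Mb of the start of Clic1 against its distance (horizontal axis, Mb), with members as red circles and genes past an adjusted p of 0.05 as black squares. The 5 members lie between -1.13 and -0.846 Mb with differences of -0.04 to 0.25, with Rps18 (2.06) and H2-K1 (1.95) close by.

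Some members share bases with other annotated genes, and whether the counting used strand was not given in the sources used here. Tap1 and Psmb9 overlap by 212 bases on opposite strands, Erap1 and Cast by 834, and Pdia3 and Catsper2 by 18. Tapbp overlaps Zbtb22 on the same strand by 3422 bases, which is the whole annotated span of Zbtb22. The log2 difference was 0.10 for Zbtb22 and 0.18 for Tapbp. Relative to the other KO libraries, K10 was 1.37-fold for Zbtb22 and 0.818-fold for Tapbp. How the counting divided reads between Tapbp and Zbtb22 was not tested. Transcripts at least 95% identical over at least 30% of the shorter were found for Psmb8 and Tap2 (both Gm20496) and Tapbp (Gm11032 and Gm19412), and none of these was in the table.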

How the data were processed

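The 9 samples of hypothalamic RNA were grouped here as 5 with Clic1 deleted (KO, with K10 among them) and 4 WT. According to the methods and the submitters' processing notes, reads were checked with FastQC 0.11.8, trimmed with Trimmomatic 0.38, aligned to GRCm38.p6 with STAR 2.5.1a and quantified with RSEM 1.3.0 on Ensembl 98. The authors removed genes without a CPM of 1 in at least 5 samples and normalized with TMM in edgeR. The deposited signal is this normalized CPM. Steps between low values were whole reads (within 0.03 reads) for 81.0% to 86.5% of values up to 2.5 CPM, too few to recover counts, so depth is approximate. The authors' comparison table, with log2 fold changes and p-values, served only to pair gene IDs with symbols. 1 further column of per-library values, named as a W library, matched no sample and was not used. The WT group may therefore lack a library that was sequenced.

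Values were fitted as log2(CPM + 0.1) with limma 3.58.1 in R 4.3.3 (trend, condition only, Benjamini-Hochberg over 14351 genes), after the fit was tested on simulated data. Single ratios were tested with exact permutation tests. Positions came from GENCODE mouse release 21, and similar transcripts from blastn 2.17.0. The members and lists were chosen with earlier results of these data known. Named genes were the members, those past the threshold, without overlap or with the smallest p in each list, the genes past the threshold within 1 Mb of a member, Clic1 and the second gene of each ratio. Genes named for W9 or K10 were chosen after their values were seen. Alternatives covered pseudocounts of 0.5 and 1, filters at 1 and 5 CPM, scaling, variance models, sample weights, limma-voom on estimated reads, the group of K10, windows of 0.5 and 2 Mb, and leaving out libraries. 1 gene of the lists is not reported here.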

Additional observations from a re-analysis of the deposited data

Results flagged for a closer look

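Among 32 groups of values examined (each member, Clic1 and each ratio in KO and in WT), 5 had a highest library far from the rest of its group. At 1 in 20 per group, 1.6 would be flagged if the groups were independent. They share the same 9 libraries and some genes, so 5 against 1.6 does not measure an excess. Tap1 was 7.86 CPM in W9 and 4.56 to 4.82 CPM in the other 3 WT libraries. The other 4 were all K10, which was the highest of the 9 libraries for 30.1% of all genes. Psmb10 was 21.4 CPM in K10, while K2, K4, K6 and K8 had 11.5 to 13.0 CPM, and Calr was 377 CPM against 240 to 254 CPM. Canx was 690 CPM in K10 against 547 to 568 CPM, and Pdia3 was 294 CPM against 182 to 210 CPM. Psmb8 in W9, at 7.60 CPM against 1.09 to 2.75 CPM in the other WT libraries, was not among them, because those 3 libraries were themselves spread. The cause of these values was not tested.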

How the results depend on the processing

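No paired analysis was possible because the KO libraries (2, 4, 6, 8, 10) and the WT libraries (1, 3, 9, 11) share no replicate number. The count of members past the threshold stayed at 0 under every alternative, with 8 to 10 of them tested, and Tap1, Tapbp and Erap1 kept a positive difference under each. The fewest estimated reads stood behind Psmb9 (4 to 24.4 per library) and Psmb8 (12 to 76), and the SE of Psmb8 was 0.43, or 0.30 without W9.

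The count over all genes went from 41 to 27 with a filter at 5 CPM, 135 with sample weights, 5 with K10 grouped as WT, 137 with K10 and W9 both left out, and 18 to 87 with 1 library left out (87 without K10, 24 without W9), with a shift of over 1.5 times without K6, K8, K10 or any WT library. Clic1 was at -1.51 (adjusted p = 0.501) with K10 as WT and -1.94 to -1.62 with 1 library left out, where adjusted p reached 0.0893 and missed the threshold without W1, W3 or W9. With K10 as WT the class I chains past the threshold went from 3 to 0 (2 to 3 with 1 library left out), and the differences were -0.13 for Psmb8, -0.29 for Psmb10, -0.20 for Calr, -0.0453 for Canx and -0.19 for Pdia3. With sample weights they were -0.0867 for Psmb10, -0.0396 for Calr and -0.0369 for Pdia3, and 1 class I regulator, Rfxank, passed, as it did (1) with K10 and W9 both left out. In that last setting Psmb10 was at -0.0321, Calr at -0.0458, Pdia3 at -0.0564 and log2 Psmb8/Psmb5 at 0.37, against -0.07. Psmb10 was also at -0.0017 with equal sums and -0.0223 with quantile normalization, and Tap2 was at 0.0340 with limma-voom.

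With 1 library left out the ranges were -0.15 to 0.11 for Tap2, -0.30 to 0.60 for Psmb8, -0.0773 to 0.58 for Psmb9, -0.16 to 0.13 for Psmb10, -0.0938 to 0.0774 for Calr and -0.0846 to 0.0882 for Pdia3. For the log2 ratios they were -0.44 to 0.36 for Psmb8/Psmb5, -0.0812 to 0.52 for Psmb9/Psmb6, -0.11 to 0.0807 for Psmb10/Psmb7 and -0.0883 to 0.17 for Tapbp/Tapbpl. Genes past the threshold around Tap1, Tap2, Tapbp, Psmb8 and Psmb9 numbered 3 each within 0.5 Mb, and 10 around Tapbp and 1 around Pdia3 within 2 Mb. The causes of these shifts were not tested.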
